A study of Saccharomyces cerevisiae with 21 samples.

Results

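The 8 yeast genes GDH1, GDH3, GDH2, GLT1, GLN1, GAD1, ASN1 and ASN2 encode the enzymes that make, interconvert and break down glutamate, glutamine and asparagine. They were taken by gene symbol from the annotation of the array platform, which gave each of them 1 probe set that named no other gene. They are 8 of the 5656 genes, and their probe sets 8 of the 9275, that were tested. RNA of the budding yeast Saccharomyces cerevisiae was measured on 21 Affymetrix YG_S98 arrays, 3 in each of 7 groups, along a course of drying and rehydration. All groups came from the diploid laboratory strain BY4743 (S288C background), known to carry deletions in HIS3, LEU2 and URA3, of which that in HIS3 removes only part of the gene. Cells grown in YPD, a rich glucose medium, at 30 °C to an A600 of 0.8 were resuspended in YPD diluted 20-fold at 22 to 25 °C. The control group was sampled directly after that resuspension. The 50% dry group had stood drying for 18 h in dishes of 15 ml. The dry group had dried for 42 h and was then held for 72 h at 20% relative humidity. The other 4 groups were dry cells returned to diluted YPD for 15, 45, 90 or 360 min, after which the cells of several dishes were pooled in a flask. Comparisons with control share its 3 arrays, and in them the effects of drying, medium, temperature and elapsed hours cannot be told apart.

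Glutamate and glutamine carry nearly all nitrogen that enters yeast metabolism. Ammonium is fixed onto 2-oxoglutarate, an intermediate of the citric acid cycle, by NADP-dependent glutamate dehydrogenase, and onto glutamate by glutamine synthetase. Glutamate synthase passes the amide nitrogen of glutamine back to 2-oxoglutarate. Other enzymes run the opposite way or lead off the cycle: NAD-dependent glutamate dehydrogenase releases ammonium from glutamate, glutamate decarboxylase makes gamma-aminobutyrate (GABA), and asparagine synthetase moves amide nitrogen from glutamine onto aspartate. Yeast genes for these enzymes are known to respond to the nitrogen source, the carbon source and amino acid supply.

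Values given per array are the deposited probe-set signals, a linear intensity. Differences are in log2 signal after quantile normalization, with their standard error from limma, and an adjusted p is limma's after Benjamini-Hochberg adjustment over all 9275 probe sets. A difference was called where its adjusted p was under 0.05 and it was at least 2-fold, and "rose" and "fell" are used of called differences only. The labels did not say that replicates were separate cultures, so the p-values measure only the spread between these samples. With 3 arrays per group, the number of arrays limits how precise a value can be. Array medians ran between 141 and 207. Correlations between replicate arrays over all probe sets were 0.984 to 0.992 in 6 groups and 0.967 to 0.977 at 360 min. Recorded hybridization times, split where they lay more than 5 min apart, put the arrays into 6 sets, here called hybridization runs. The control, 90 min and 360 min groups each filled a run of their own, so run and group cannot be told apart there. Scans were made on 3 days: control on day 1, the 50% dry, dry, 15 min and 45 min groups on day 2, and the 90 and 360 min groups on day 3. In comparisons across these days, scan day and group cannot be told apart. The difference between 3′ and 5′ probe sets of ACT1, the actin gene used as a sign of RNA quality, was -0.57 ± 0.33 in control, 0.76 ± 0.26 in 50% dry, 0.95 ± 0.03 in dry, 1.29 ± 0.09 at 15 min, 1.81 ± 0.02 at 45 min, 2.26 ± 0.25 at 90 min and 2.73 ± 0.17 at 360 min (log2, SD, n = 3 each). It grew along the whole course. The same difference for SRB4 was 1.11 in control, 3.21 at 90 min and 2.99 at 360 min, and for SPT15 1.51 in control, 1.67 in 50% dry, 1.06 in dry and 2.82 at 360 min, so these did not grow at every stage. Their part in the results was not tested. Of the genes deleted in the strain, URA3 read 0.5 to 5.8 on the 21 arrays and the brightest LEU2 set 6.0 to 107.5, while the brighter set of HIS3 read 126.5 to 874.5. Arrays give RNA per total RNA, and fewer cells with a transcript cannot be told apart from less transcript per cell.

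**Figure D1:**
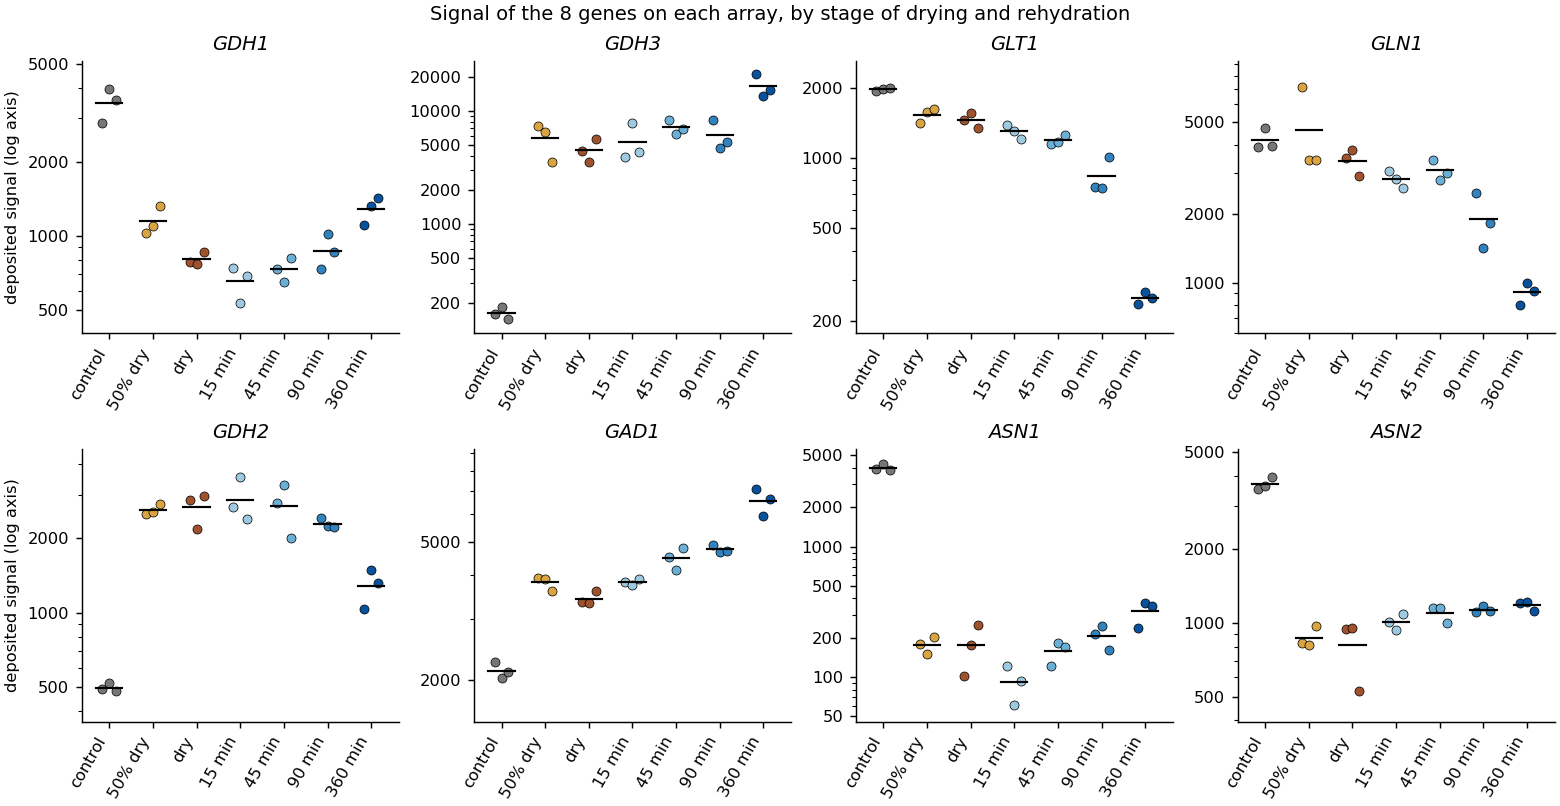
Deposited signal of each of the 8 genes on each of the 21 arrays (log axis), by stage from control to 360 min of rehydration; points are arrays and bars the means of 3. GDH3, GDH2 and GAD1 lay lowest in control cells, while GDH1, ASN1 and ASN2 lay highest there, and GLT1 and GLN1 were lowest at 360 min.

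Between growth and the 50% dry stage the genes split. GDH3, GDH2 and GAD1 rose, GDH1, ASN2 and ASN1 fell, and GLT1 and GLN1 were not called. That made 3 of 8 higher, against 13.1% of all probe sets, and 3 of 8 lower, against 13.9%. The median difference of the 8 was -0.17, against -0.02 over all probe sets. In dry against 50% dry cells none of the 8 was called by limma, where 3.06% of all probe sets were called higher and 5.05% lower, and 1 of the 8 had an unadjusted p under 0.05. With limma fitted to only the arrays compared, unlike the fit for the 8, 4325 of all 9275 probe sets had an unadjusted p under 0.05. In dry against control cells, 2 of 8 were called higher and 3 lower, where the shares of all probe sets were 17.5% higher and 17.5% lower.

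During early rehydration none of the 8 was called by limma. In 15 min against dry cells 0.0539% of all probe sets were called higher and 0.0647% lower, and 2 of the 8 genes had an unadjusted p under 0.05. In 45 against 15 min the shares were 0.0431% higher and 0.0323% lower, with 1 of the 8 at an unadjusted p under 0.05. In 90 against 45 min they were 0.0647% higher and 0.108% lower, with 2 of the 8. With limma fitted to only the arrays compared, unlike the fit for the 8, many of all 9275 probe sets had an unadjusted p under 0.05. These were 1417 in 15 min against dry, 1156 in 45 against 15 min and 1831 in 90 against 45 min. Calls among the 8 came later: 1 lower in 90 min against dry (background 2.09% higher, 2.56% lower), 1 lower in 360 against 90 min (3.82% higher, 3.07% lower), and 1 higher with 3 lower in 360 min against dry (11.4% higher, 11.7% lower). In 360 min against control all 8 were called, 3 higher and 5 lower, where 19.7% of all probe sets were called higher and 21.4% lower. A limma F test over the 7 groups was passed by 8 of 8 genes and by 82.5% of all probe sets.

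NADP-dependent glutamate dehydrogenase is encoded by a pair of genes, and they moved in opposite directions. GDH1 (YOR375C, chromosome XV, 1041678 to 1043042 in the R64 assembly) encodes the isoenzyme used mainly in cells growing on glucose. GDH3 (YAL062W, chromosome I, 31567 to 32940) encodes the one known to be made on nonfermentable carbon sources. GDH1 signals were 1026, 1101 and 1328 in 50% dry cells, against 2877, 3939 and 3561 in control cells. GDH3 signals were 7292, 6446 and 3513 in 50% dry cells, against 161, 186 and 143 in control cells. The groups did not overlap for either gene, and the third 50% dry array was the lowest of its group for GDH3. How many of all probe sets did not overlap between groups was not counted, here or for the other genes. With limma fitted to only the arrays compared, 5765 of the 9275 had an unadjusted p under 0.05 in 50% dry against control. GDH3 rose by 5.08 ± 0.23 (adjusted p = 8.26e-13), a 33.8-fold difference and the 35th highest of the 9275, and by 5.37 without that array. GDH1 fell by 1.68 ± 0.14 (adjusted p = 4.32e-09), a 3.21-fold difference. How far the responses of this gene pair differed was not tested directly, and hybridization of one transcript to the probe set of the other was not checked.

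In dry cells GDH1 read 787, 768 and 862, below every 50% dry array, but the difference of -0.58 ± 0.14 (adjusted p = 0.00275) was under 2-fold. Within the 1 hybridization run that held both groups it was -0.63, with 1 dry and 3 50% dry arrays. GDH1 then read 739.9, 537 and 687 at 15 min, 733, 648 and 814 at 45 min, 733, 1021 and 860.0 at 90 min, and 1107, 1322 and 1432 at 360 min. Its low point was thus at 15 min, and at 360 min all 3 arrays were above those of 90 min and below those of control. The difference of 360 min and dry cells was 0.95 ± 0.14 (adjusted p = 1.13e-05) and was just under 2-fold. It passed 2-fold without dry replicate 3 (1.01), without 360 min replicate 1 (1.03) and with median-centred arrays (1.12). With the deposited scaling it was smaller, 0.66 ± 0.15 (adjusted p = 0.000822). At 360 min GDH1 was still 2.50-fold lower than in control (-1.32 ± 0.14, adjusted p = 8.27e-08). The order of its levels was control, 360 min, 50% dry and 90 min, each different from the next at adjusted p = 8.27e-08, 0.0309 and 0.048, followed by dry, 45 min and 15 min, where no neighbours, 90 min and dry included, differed beyond their spread. Farther apart, the difference of 90 and 15 min was 0.51 ± 0.14 (adjusted p = 0.0139), under 2-fold.

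GDH3 stayed at its high level up to 90 min, and at 360 min its level depended on the scaling. Its signals were 4400.2, 3504 and 5648 in dry cells, 3893, 7781 and 4340.5 at 15 min, 8239.5, 6169 and 6933 at 45 min, and 8254, 4716 and 5339 at 90 min. Each of these stages overlapped the 50% dry stage, and replicates within a stage differed by more than for most of the 8 genes. At 360 min the arrays read 21104, 13411 and 15145, above all others as deposited. After quantile normalization the 360 min level was 0.33 ± 0.23 above dry cells (adjusted p = 0.243), and the 6 stages after control did not differ between neighbours in their order. With the deposited scaling it was 1.87 ± 0.29 above dry cells and with median-centred arrays 2.34 ± 0.31, both called. GDH3 was 38.2-fold higher at 360 min than in control (5.25 ± 0.23, adjusted p = 3.78e-13), the 24th highest of all probe sets. With the deposited scaling it was 90.3-fold higher (6.50 ± 0.29) and with median-centred arrays 106-fold (6.73 ± 0.31).

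**Figure D2:**
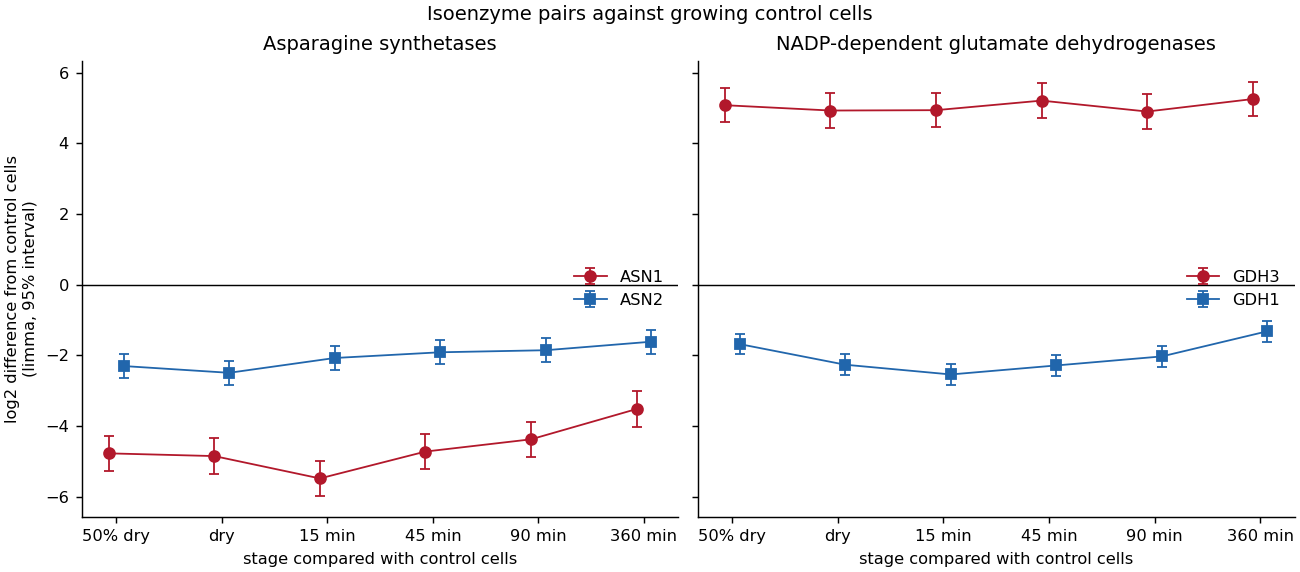
Difference of each later stage from control cells (log2, limma, bars 95% intervals) for the asparagine synthetase genes ASN1 and ASN2 (left) and the NADP-dependent glutamate dehydrogenase genes GDH3 and GDH1 (right). GDH3 lay between 4.90 and 5.25 above control and GDH1 between -2.54 and -1.32, while ASN1 lay between -5.49 and -3.52 and ASN2 between -2.50 and -1.62.

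GLT1 and GLN1, the glutamate synthase and glutamine synthetase genes, were not called during drying and fell late in rehydration. GLT1 (YDL171C, chromosome IV, 149203 to 155640) has the longest coding region of the 8, with 6438 bases. GLN1 (YPR035W, chromosome XVI, 642208 to 643320) has the shortest, with 1113. GLT1 signals were 1404, 1575 and 1615 in 50% dry cells, against 1932, 1973 and 1998 in control cells. The groups did not overlap, yet the difference of -0.29 ± 0.09 (adjusted p = 0.0117) was small. In dry cells GLT1 read 1453, 1559 and 1339, within the range of the 50% dry arrays or just below it, and -0.39 ± 0.09 from control (adjusted p = 0.00123).

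After rehydration GLT1 read 1382, 1303 and 1205 at 15 min, 1147, 1170.4 and 1256 at 45 min, 751, 744 and 1004 at 90 min, and 235, 265 and 251 at 360 min. Each of the last pair of stages lay below all arrays of the stage before it. The difference of 90 and 45 min was -0.49 ± 0.09 (adjusted p = 0.00636), under 2-fold. GLT1 fell by 1.36 ± 0.09 in 360 against 90 min (adjusted p = 1.2e-08) and fell by 2.10 ± 0.09 in 360 min against dry cells (adjusted p = 3.24e-12), a 4.29-fold difference. Against control it was 5.63-fold lower at 360 min (-2.49 ± 0.09, adjusted p = 4.41e-14). Its levels ran in the order control, 50% dry, dry, 15 min, 45 min, 90 min and 360 min, and the 4 in the middle from 50% dry to 45 min did not differ between neighbours. Across these 4, the difference of 45 min and 50% dry cells was -0.35 ± 0.09 (adjusted p = 0.00509), under 2-fold.

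GLN1 signals were 7129, 3413 and 3429 in 50% dry cells, against 3915, 4720.1 and 3956 in control cells. The first 50% dry array lay above, and the other 2 below, all control arrays. The difference was -0.05 ± 0.21 (adjusted p = 0.876, 95% interval -0.50 to 0.40), and without the first 50% dry array it was -0.34 ± 0.19 (adjusted p = 0.137). In dry cells GLN1 read 3512, 3774 and 2921, below all control arrays, with a difference of -0.32 ± 0.21 (adjusted p = 0.205).

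At 15 min GLN1 read 3057, 2819.6 and 2597, at 45 min 3433, 2809.5 and 3016, at 90 min 2451, 1419 and 1818, and at 360 min 799, 998 and 921. The 90 min arrays were below all dry arrays, and the 360 min arrays below all 90 min arrays. GLN1 fell by 1.14 ± 0.21 in 90 min against dry cells (adjusted p = 0.000562), a call that ended without 90 min replicate 2 (-0.95), with the deposited scaling (-0.87) and with median-centred arrays (-0.62, adjusted p = 0.0502). In 360 against 90 min the difference was -0.77 ± 0.21 (adjusted p = 0.00784), under 2-fold. GLN1 fell by 1.91 ± 0.21 in 360 min against dry cells (adjusted p = 4.21e-07) and fell by 2.23 ± 0.21 in 360 min against control (adjusted p = 2.25e-08). In the order of its levels control, 50% dry, dry, 45 min and 15 min did not differ between neighbours, 90 min was below 15 min (adjusted p = 0.0251) and 360 min was lowest. Stages farther apart did differ. From control GLN1 differed by -0.75 ± 0.21 at 15 min (adjusted p = 0.00502) and by -0.73 ± 0.21 at 45 min (adjusted p = 0.00595), both under 2-fold. Where GLT1 and GLN1 were low, at 90 and 360 min, the 3′ to 5′ difference of ACT1 was at its highest, and its part in these falls was not tested.

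**Figure D3:**
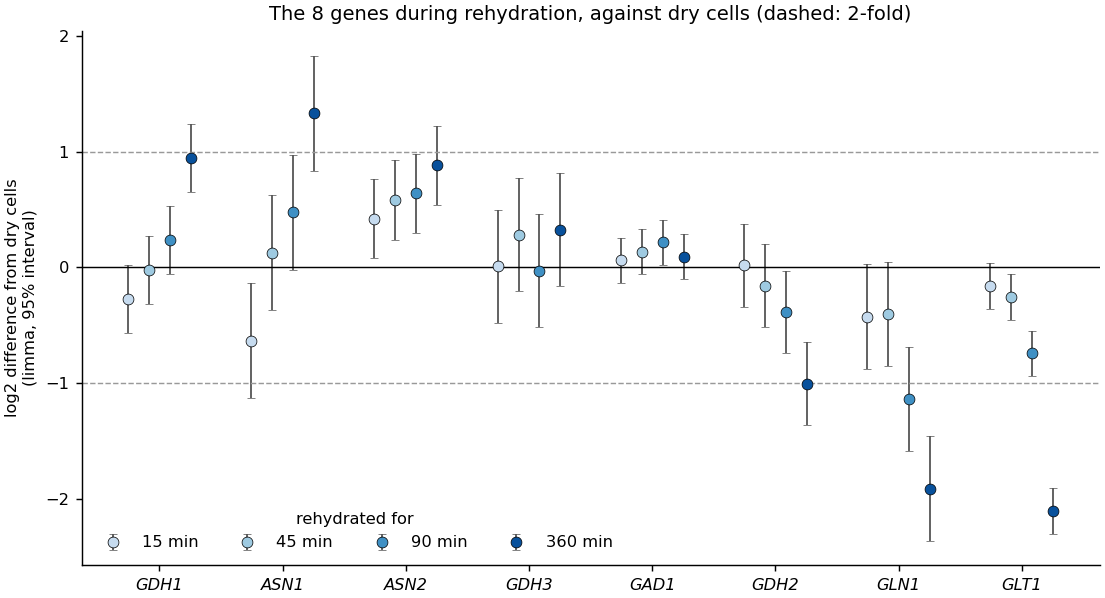
Difference of cells rehydrated for 15, 45, 90 and 360 min from dry cells (log2, limma, bars 95% intervals) for the 8 genes, with dashed lines at 2-fold. At 360 min GLT1 (-2.10), GLN1 (-1.91), GDH2 (-1.01) and ASN1 (1.33) were past 2-fold, and at 15 and 45 min none was.

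Glutamate breakdown is represented by GDH2 and GAD1, which both rose early in drying. GDH2 (YDL215C, chromosome IV, 70640 to 73918) encodes NAD-dependent glutamate dehydrogenase, and GAD1 (YMR250W, chromosome XIII, 770801 to 772558) encodes glutamate decarboxylase, the first enzyme of the GABA shunt, which is known to be needed for normal tolerance of oxidative stress in yeast. GDH2 signals were 2512, 2563 and 2747 in 50% dry cells, against 492.5, 518 and 484 in control cells. GAD1 signals were 3944, 3918 and 3610.2 in 50% dry cells, against 2247, 2020.3 and 2100.3 in control cells. The groups did not overlap for either gene. GDH2 rose by 2.44 ± 0.17 (adjusted p = 3.55e-10), a 5.42-fold difference. GAD1 rose by 1.05 ± 0.09 (adjusted p = 1.1e-08), a call that ended with the deposited scaling (0.84) and with median-centred arrays (0.65), in the same direction.

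GDH2 read 2854, 2190.4 and 2983 in dry cells, 2692, 3536 and 2390.4 at 15 min, 2790.4, 3294 and 2009.6 at 45 min, 2410.0, 2245 and 2218 at 90 min, and 1032, 1496 and 1326 at 360 min. The 5 stages between control and 360 min did not differ between neighbours in their order, and all 360 min arrays lay below them and above the control arrays. GDH2 fell by 1.01 ± 0.17 in 360 min against dry cells (adjusted p = 5.39e-05). That value lies at the 2-fold limit, and the call ended without dry replicate 1 (-0.95), without dry replicate 3 (-0.92), without 360 min replicate 1 (-0.86), with median-centred arrays (-0.59) and with a larger value added before the logarithm (-0.97). At 360 min GDH2 was still 2.82-fold higher than in control (adjusted p = 2.24e-07).

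GAD1 read 3344, 3333 and 3606 in dry cells, 3824, 3749 and 3898 at 15 min, 4509.6, 4146 and 4809 at 45 min, 4913, 4661 and 4713 at 90 min, and 7125, 5936 and 6667 at 360 min. As deposited, its signal was highest at 360 min, where no array overlapped another stage. After quantile normalization the 6 stages after control did not differ between neighbours, and 360 min lay 0.09 ± 0.09 above dry cells (adjusted p = 0.422). The difference of dry and control cells, 0.96 ± 0.09 (adjusted p = 2.5e-08), was just under 2-fold and passed it without control replicate 1 (1.04). GAD1 rose by 1.05 ± 0.09 in 360 min against control (adjusted p = 6.27e-09), and this call ended without 360 min replicate 1 (0.99). With the deposited scaling the difference was 1.62 ± 0.09 and with median-centred arrays 1.86 ± 0.11.

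The asparagine synthetase genes were lower in all stages after control. ASN1 (YPR145W, chromosome XVI, 822620 to 824338) and ASN2 (YGR124W, chromosome VII, 739944 to 741662) encode isoenzymes, with coding regions of the same length, 1719 bases. ASN1 signals were 178, 150.3 and 202 in 50% dry cells, against 3917, 4292 and 3874 in control cells. ASN2 signals were 826, 814 and 974.5 in 50% dry cells, against 3539, 3638 and 3952 in control cells. No array of any later stage came near the control arrays for either gene. ASN1 was 27.4-fold lower (-4.78 ± 0.24, adjusted p = 2.53e-12), the 7th lowest difference of all probe sets. ASN2 was 4.94-fold lower (-2.30 ± 0.16, adjusted p = 4.28e-10). Whether this gene pair differed in the size of its response was not tested directly, and no probe sequences were used here, so hybridization of one transcript to the probe set of the other was not checked.

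ASN1 read 102, 176 and 251 in dry cells, 121.5, 60.7 and 93.3 at 15 min, 121, 183 and 171 at 45 min, 215, 246 and 160.2 at 90 min, and 238, 370.2 and 349 at 360 min. The lowest 2 arrays of the course were at 15 min, but the difference from dry cells, -0.63 ± 0.24, was not called (adjusted p = 0.254), and within the run that held 2 arrays of each it was -0.95. Neither was the difference of 45 and 15 min, 0.76 ± 0.24 (adjusted p = 0.142, 0.72 within the run that held 3 and 1 arrays). Farther apart, ASN1 rose by 1.11 ± 0.24 in 90 against 15 min (adjusted p = 0.00268). It rose by 1.96 ± 0.24 in 360 against 15 min (adjusted p = 1.18e-06). The difference of 15 min and 50% dry cells was -0.71 ± 0.24 (adjusted p = 0.0236), under 2-fold. ASN1 rose by 1.33 ± 0.24 in 360 min against dry cells (adjusted p = 9.24e-05), although the lowest 360 min array lay under the highest dry array as deposited, and the call ended with the deposited scaling (0.85). In 360 against 90 min the difference was 0.86 ± 0.24 (adjusted p = 0.00768), and it passed 2-fold without 360 min replicate 1 (1.03). With the deposited scaling that difference was 0.58 ± 0.26 (adjusted p = 0.0714). ASN1 was still 11.5-fold lower at 360 min than in control (-3.52 ± 0.24, adjusted p = 1.39e-10).

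ASN2 read 943, 958 and 527 in dry cells, 1014, 932.5 and 1088 at 15 min, 1150.5, 1155 and 999 at 45 min, 1106, 1172 and 1121 at 90 min, and 1209.6, 1216 and 1117 at 360 min. Dry replicate 3 stood well below the other 2, and the 90 and 360 min arrays lay above all dry arrays. In 90 min against dry cells the difference was 0.64 ± 0.16 (adjusted p = 0.00603), and in 360 min against dry cells it was 0.88 ± 0.16 (adjusted p = 0.000136), both under 2-fold. The second passed 2-fold without dry replicate 1 (1.02), without dry replicate 2 (1.04) and with median-centred arrays (1.05). With the deposited scaling it was smaller, 0.58 ± 0.15 (adjusted p = 0.00296). At 360 min ASN2 was still 3.06-fold lower than in control (-1.62 ± 0.16, adjusted p = 4.28e-08). In the order of its levels control stood first, and the 6 later stages did not differ between neighbours.

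What the arrays showed of the 8 genes at 360 min depended on the scaling, most for those of highest signal. The 99th percentile of the deposited signal was 9892 at 360 min, against 4354 in dry cells, and the median was 143 against 205. Quantile normalization makes these distributions equal. The median of all probe sets in 360 min against dry cells was 0.00 after it, -0.20 with the deposited scaling and 0.27 with median-centred arrays. GDH3 in this comparison was 0.33 ± 0.23 (adjusted p = 0.243), against 1.87 ± 0.29 (adjusted p = 1.48e-05) with the deposited scaling and 2.34 ± 0.31 (adjusted p = 2.31e-06) with median-centred arrays. GAD1 was 0.09 ± 0.09, against 0.93 ± 0.09 (adjusted p = 3.85e-08) and 1.40 ± 0.11 (adjusted p = 1.23e-09). GLT1 (-2.10, -2.45 and -1.99) and GLN1 (-1.91, -1.89 and -1.42) were called lower under each of the 3. GDH1 (0.95, 0.66 and 1.12), ASN2 (0.88, 0.58 and 1.05), ASN1 (1.33, 0.85 and 1.315) and GDH2 (-1.01, -1.05 and -0.59) kept their direction. Whether these genes were called changed with the scaling. With the deposited scaling 4 of the 8 genes were called, GDH3 among them and ASN1 not, and with median-centred arrays 7 were called, all but GDH2.

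**Figure D4:**
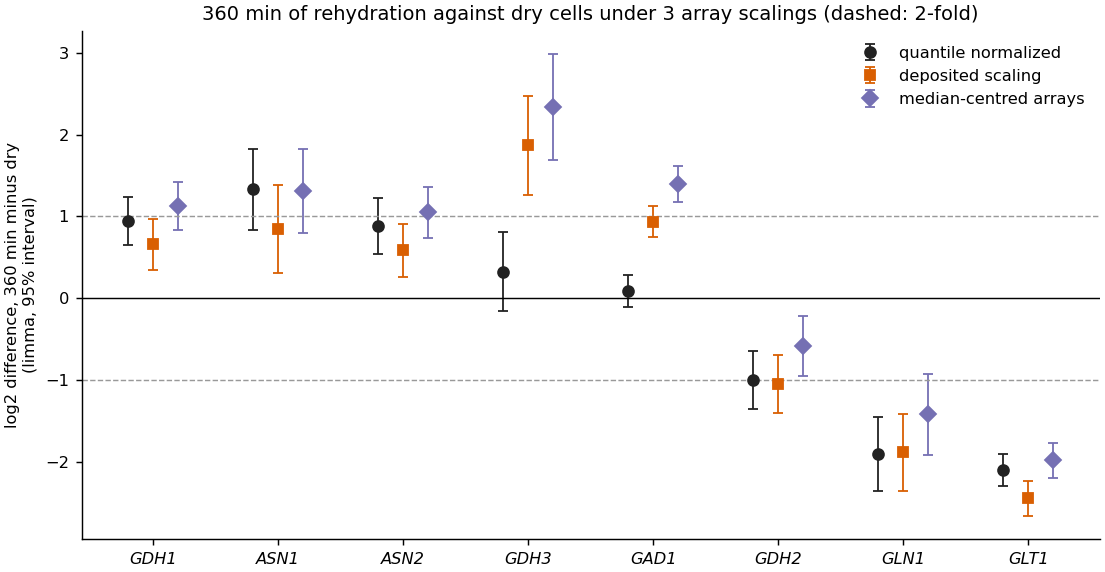
Difference of 360 min and dry cells (log2, limma, bars 95% intervals) for the 8 genes under 3 scalings of the arrays: quantile normalized, as deposited, and centred on the array median. GDH3 moved between 0.33 and 2.34 and GAD1 between 0.09 and 1.40, while GLT1 lay between -2.45 and -1.99 and GLN1 between -1.91 and -1.42.

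The share of higher calls over all probe sets moved with the scaling as well. Of the probe sets called in 360 min against dry cells, 49.4% were higher, against 33.5% with the deposited scaling and 69.5% with median-centred arrays. In 360 against 90 min the shares were 55.4%, 42.5% and 78.5%, and in 90 min against dry cells 45.0%, 26.9% and 63.8%. The few calls of 15 min against dry cells were 45.5%, 27.8% and 45.5% higher, those of 45 against 15 min 57.1%, 33.3% and 50.0%, and those of 90 against 45 min 37.5%, 40.0% and 50.0%. The median of all probe sets was -0.12 and 0.12 under these scalings in 90 min against dry cells, and with median-centred arrays it was 0.14 in 360 against 90 min, 0.17 in 360 min against control, -0.15 in 50% dry against control and -0.13 in dry against control. In the comparisons with control cells each other scaling moved the share of higher calls by less than 10 percentage points from that after quantile normalization. These shares were 48.5%, 54.9% and 41.9% in 50% dry, 50.0%, 55.9% and 43.5% in dry, and 47.9%, 42.6% and 53.7% in 360 min against control.

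The course of each gene was compared with those of 5964 probe sets of 1 named gene, by the root-mean-square distance between their 7 group means (log2, a description only). Each course was centred on its own mean but not scaled, so the distance grows with the size of changes as well as with their direction. Among the 8 genes GLT1 and GLN1 were the closest pair, at 0.20, followed by GDH1 and ASN2 at 0.36 and GDH2 and GAD1 at 0.54. GDH3 and ASN1 were farthest apart, at 3.42. Of the isoenzyme pairs, ASN1 and ASN2, both lower in all stages after control, were 0.997 apart. GDH1 and GDH3, which moved in opposite directions, were 2.50 apart. Over all genes, GAD1 lay closest to MAG1 (0.047), DDI1 (0.066) and SIF2 (0.079), GDH2 to IGO2 (0.062), FMP46 (0.099) and MBR1 (0.12), and GDH3 to PCK1 (0.15), HEF3 (0.16) and JEN1 (0.22). GLT1 was closest to GRX2 (0.086), MCM1 (0.11) and DER1 (0.12), GLN1 to QCR2 (0.12), COQ10 (0.14) and ATP14 (0.16), and GDH1 to DOA1 (0.12), TRP5 (0.12) and LSB1 (0.13). ASN2 had WSC2 (0.11), ODC2 (0.11) and ADO1 (0.12) as its nearest, and ASN1 had ERG4 (0.19), YHB1 (0.25) and UTR2 (0.29).

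Around these enzymes, 76 of 82 genes in 7 lists of the same metabolism were measured. They are described by counts and medians in 50% dry against control cells, where 13.1% of all probe sets were called higher and 13.9% lower. Genes that supply or use 2-oxoglutarate, the carbon skeleton of glutamate, were called higher in 7 and lower in 2 of 13, with a median of 1.07. IDP2 rose by 4.92 ± 0.11 and IDP3 by 4.20 ± 0.09 (NADP-dependent isocitrate dehydrogenases of cytosol and peroxisome), and CIT2, peroxisomal citrate synthase, by 3.53 ± 0.10, whereas PYC2, a pyruvate carboxylase gene, fell by 2.14 ± 0.09. Regulators of nitrogen and amino acid supply were called higher in 5 and lower in 0 of 16 (median 0.51). GZF3 rose by 1.89 ± 0.10 and GAT1 by 1.38 ± 0.11, both GATA factors of nitrogen regulation, RTG1, a factor of the retrograde pathway, by 1.62 ± 0.17, and HAP4, an activator subunit of respiratory genes, by 1.58 ± 0.12. Of the 4 genes of the GABA shunt and its uptake, UGA3, their activator, rose by 1.26 ± 0.11 and the other 3 were not called (median 0.56).

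The list of enzymes that use the amide nitrogen of glutamine also held GLN4, whose enzyme uses glutamine whole. Its genes were called lower in 6 and higher in 0 of 13 (median -0.94). ADE6 fell by 2.93 ± 0.13 and GUA1 fell by 2.28 ± 0.09, both genes of purine synthesis. GFA1, of cell wall amino sugar synthesis, fell by 1.65 ± 0.15, and GLN4, glutaminyl-tRNA synthetase, fell by 1.51 ± 0.11. Of 5 measured aspartate and asparagine genes 3 were lower and 1 higher (median -1.10). DED81, asparaginyl-tRNA synthetase, fell by 3.02 ± 0.11, ASP1, cytosolic asparaginase, fell by 1.18 ± 0.15, and AAT1, mitochondrial aspartate aminotransferase, rose by 2.59 ± 0.15. DPS1, aspartyl-tRNA synthetase, fell by 1.10 ± 0.08, a call that ended with the deposited scaling (-0.91). Uptake and carriage genes were called higher in 4 and lower in 1 of 11 (median 0.29). GAP1, the general amino acid permease, rose by 3.50 ± 0.16, MEP2, an ammonium permease, by 2.96 ± 0.09, and ODC1 by 2.39 ± 0.13, whereas its paralogue ODC2 fell by 2.19 ± 0.18, both mitochondrial carriers of 2-oxoglutarate. Transaminases and other glutamate users were called higher in 5 and lower in 5 of 14 (median -0.64). ALT2, a paralogue of alanine transaminase, rose by 4.16 ± 0.23, while ARO8, an aromatic aminotransferase, fell by 3.66 ± 0.13. HIS5, of histidine synthesis, fell by 2.51 ± 0.20, and PRO1, of proline synthesis, fell by 2.26 ± 0.17.

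In 360 min against dry cells fewer of these genes were called, with background shares of 11.4% higher and 11.7% lower. Of 13 genes of 2-oxoglutarate supply and use 4 were lower and 2 higher, against 5 lower and 0 higher with the deposited scaling and 4 lower and 4 higher with median-centred arrays. PYC2 (1.08 ± 0.09) and IDP1 (1.03 ± 0.10) were the 2 higher, and their calls ended with the deposited scaling (0.75 and 0.65). ACO1, aconitase, fell by 1.86 ± 0.12, and KGD2, of the 2-oxoglutarate dehydrogenase complex, fell by 1.51 ± 0.10. IDH1 fell by 1.48 ± 0.18 and IDH2 fell by 1.18 ± 0.14, the subunits of NAD-dependent isocitrate dehydrogenase. Of 16 regulators 2 were lower and 1 higher, against 6 lower and 1 higher with the deposited scaling and 1 lower and 1 higher with median-centred arrays. URE2, which restrains GATA factors, fell by 1.19 ± 0.12, RTG1 fell by 1.12 ± 0.17 (not called with median-centred arrays, -0.94), and GAT1 rose by 1.02 ± 0.11. UGA2, the last enzyme of the GABA shunt, fell by 1.54 ± 0.10 and was the 1 called gene of 4, where 2 were called lower with the deposited scaling.

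The aspartate and asparagine list had 2 higher and 0 lower of 5 at 360 min, the users of glutamine amide nitrogen 2 higher and 0 lower of 13, uptake and carriage 0 higher and 1 lower of 11, and the transaminases and other users 2 higher and 1 lower of 14. With the deposited scaling these 4 lists had 1 and 0, 1 and 1, 0 and 1, and 2 and 2 genes called higher and lower, and with median-centred arrays 2 and 0, 4 and 0, 0 and 0, and 3 and 1. DED81 rose by 1.62 ± 0.11, GUA1 by 1.76 ± 0.09 and ARO8 by 2.04 ± 0.13, and each of these genes had fallen in 50% dry against control cells. PUT2, of proline breakdown, fell by 1.76 ± 0.10. Calls of ASP1 (1.07 ± 0.15), URA7 (CTP synthase, 1.16 ± 0.10), ALT1 (alanine transaminase, 1.09 ± 0.11) and DIP5 (a permease for glutamate and aspartate, -1.23 ± 0.10) ended with the deposited scaling, at 0.83, 0.67, 0.91 and -0.80, and that of DIP5 also with median-centred arrays (-0.34, adjusted p = 0.0342). List medians at 360 min were between -0.67 and 0.28. The medians of the lists for 2-oxoglutarate (-0.61, against 0.21 with median-centred arrays), uptake (-0.40, against 0.38), transaminases (-0.34, against 0.33) and glutamine amide users (0.28, against -0.18 with the deposited scaling) changed sign with the scaling. In 50% dry against control cells each list's median kept its sign under all 3 scalings.

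**Figure D5:**
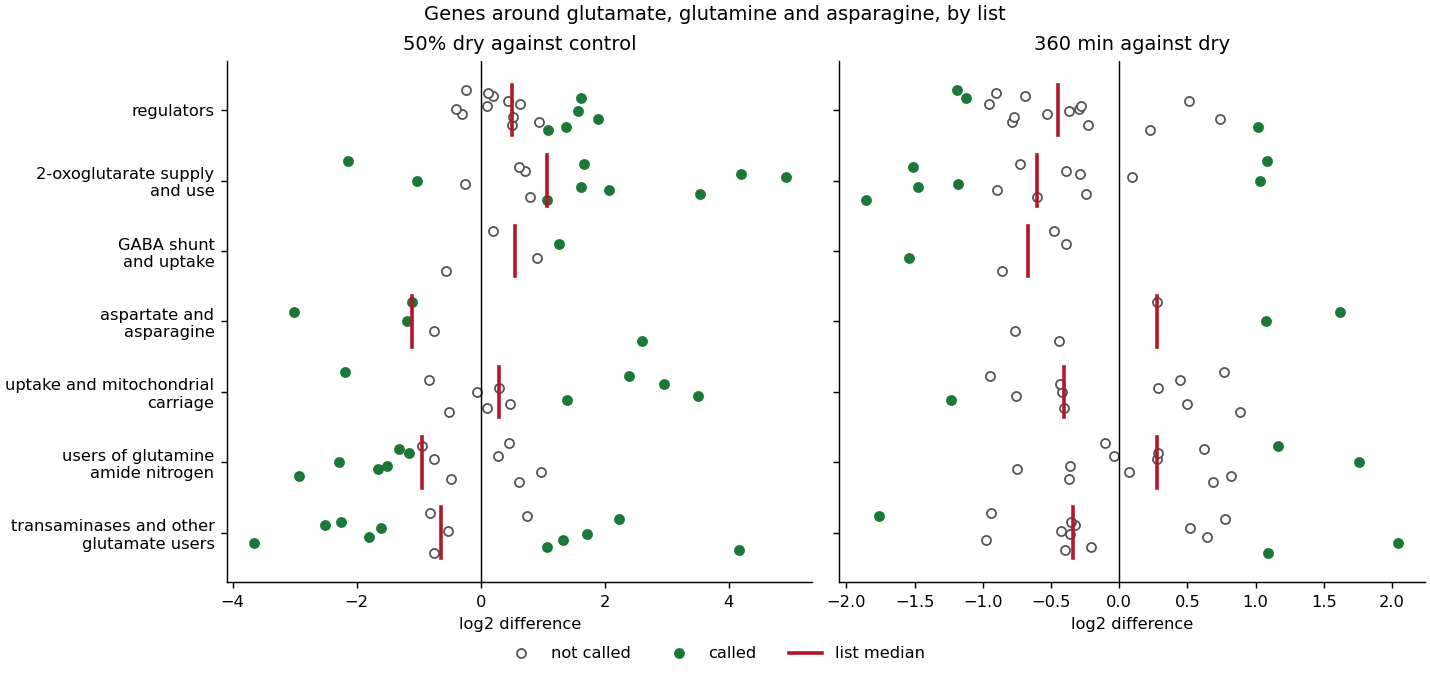
Differences (log2) of the 76 measured genes in 7 lists around glutamate, glutamine and asparagine, in 50% dry against control cells (left) and 360 min against dry cells (right); filled points were called, and red bars are list medians. On the left the 2-oxoglutarate list had its median at 1.07 and the glutamine amide list at -0.94; on the right all medians lay between -0.67 and 0.28.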

How the data were processed

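The deposited values were probe-set signals, a linear intensity. Per the labels, image data went through Affymetrix's GeneChip software, then a Wilcoxon signed rank test, and the probes of a set were merged by a linear mixed model in 2 steps. Versions and scaling are not given in the sources used here. Every array had a 2% trimmed mean of 500.2 to 500.51, and probe-level data were not analysed here. Genes were named from the platform's annotation and RefSeq (R64). Of 9335 probe sets, 60 control sets were left out. Signals were turned to log2(signal + 17.74), which adds 10% of the median and understates changes of low signals. The array medians ranged over 37.0%, above the 5% up to which the deposited scaling would have been kept, and quantile normalization was applied. limma 3.58.1 (R 4.3.3) fitted 7 group means to all 21 arrays (14 residual and 4.03 prior degrees of freedom, variance trend, two-sided), and tables and plots used Python 3.11.15, numpy 2.4.6, pandas 2.3.3 and matplotlib 3.10.9. There were 10 comparisons. The 21 pairs of groups behind the order of levels, and the within-run differences, were added after seeing the data. The procedure was tested on simulated data. The genes and lists were chosen with earlier results of these data known. Named were all 8 genes in every comparison, the 2 to 4 called genes with the largest difference in each list where it had as many, the 3 nearest courses per gene, and control genes. Lists exclude the 8 genes, and 6 listed genes are not reported here.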

Additional observations from a re-analysis of the deposited data

How the results depend on the processing

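Each count and each difference of the 8 genes was recomputed under the alternatives named here. No called difference of the 8 genes changed direction. Of the 1224 recomputed values, 31 that were not called changed sign. GAD1 in 360 against 90 min was -0.13 ± 0.09 (adjusted p = 0.289). It was 0.46 ± 0.09 with the deposited scaling (adjusted p = 0.000378) and 0.69 ± 0.11 with median-centred arrays (adjusted p = 3.81e-05), under 2-fold. Apart from leaving out arrays, 716 of the recomputed differences stayed on their side of the call, 21 gained a call and 7 lost one; with 1 array left out these numbers were 469, 6 and 5. Without a fold minimum the probe sets called were 5322 (2499 with it) in 50% dry against control, 3258 (752) in dry against 50% dry, 5969 (3245) in dry against control, 72 (11) in 15 min against dry, 95 (7) in 45 against 15 min, 436 (16) in 90 against 45 min, 3737 (639) in 360 against 90 min, 2698 (431) in 90 min against dry, 5460 (2147) in 360 min against dry and 6562 (3813) in 360 min against control. Of the 8 genes, 1 was then called in dry against 50% dry, 1 in 90 against 45 min, 5 in 360 against 90 min and 3 in 90 min against dry. Adding 50% of the median gave 410 in dry against 50% dry, 7 in 15 min against dry, 4 in 45 against 15 min, 3 in 90 against 45 min, 265 in 360 against 90 min, 217 in 90 min against dry and 1249 in 360 min against dry, and adding 1% gave 35 in 90 against 45 min and 1042 in 360 against 90 min. The deposited scaling gave 18 in 15 min against dry, and called 3 of the 8 genes in 360 against 90 min and 0 in 90 min against dry. Median-centred arrays gave 1006 in 360 against 90 min, and called 2 of the 8 genes there, 0 in 90 min against dry and 7 in 360 min against dry. With GDH3 under 2-fold in 360 against 90 min (0.35), it was called under both (1.45 and 1.68), and GLN1 (-0.77) under the deposited scaling (-1.02). In 45 against 15 min the count was 3 without the variance trend and 0 with only the arrays compared, where 1156 had an unadjusted limma p under 0.05; in 90 against 45 min it was 8 with only those arrays. A block for the hybridization run, over the groups that share runs, gave 2 in 15 min against dry and 64 in 45 against 15 min. With 1 array left out the counts were 6 to 11 in 15 min against dry (6 without 15 min replicate 3), 1 to 15 in 45 against 15 min (15 without 15 min replicate 2, 1 without 15 min replicate 3 or 45 min replicate 1, 3 without 45 min replicate 2 and 2 without 45 min replicate 3), and 13 to 30 in 90 against 45 min (30 without 90 min replicate 1). Of the 8 genes, 1 to 2 were then called in 360 against 90 min and 0 to 1 in 90 min against dry. The replicate block, with the replicate number as a block, gave 4 in 45 against 15 min and changed no call of the 8 genes. Same-numbered arrays deviated from their group means with correlations of -0.14 to 0.15, so the numbers were not taken to pair the samples. Leaving out the dimmest 20% of probe sets changed no call of the 8 genes. The cause of these changes was not tested. Several differences near 2-fold crossed it with 1 array left out or another scaling: GDH2, GDH1 and ASN2 in 360 min against dry and GLN1 in 90 min against dry with either, GAD1 in 360 min and in dry against control and ASN1 in 360 against 90 min with 1 array left out, and ASN1 in 360 min against dry and GAD1 in 50% dry against control with the scaling. Values of the brightest genes at 360 min are limited by the scaling.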

Other observations

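The probe sets of HIS3, LEU2 and URA3, the genes known to be deleted in whole or in part in the strain, read unequally. The URA3 set was between 0.5 and 5.8 on the 21 arrays, and the brightest of the 3 LEU2 sets was between 6.0 and 107.5. The brighter HIS3 set read between 126.5 and 874.5, with a mean of 837 in control cells and a median over all arrays of 177, and the other HIS3 set read between 36.6 and 226.6. Probe positions were not used here, so the part of the gene that these sets read was not tested.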
